A study of Mus musculus with 6 samples.

Results

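The genes described here are the heat shock proteins and their partner chaperones in mouse bone marrow neutrophils treated with prostaglandin E2 (PGE2), a lipid mediator of inflammation. Members were taken by gene symbol: protein-coding genes of the HSP70, HSP90, HSP110 and small heat shock protein families, the J-domain proteins of classes A, B and C, the CCT subunits of the TRiC chaperonin and the BAG proteins, without 4 chaperones of the endoplasmic reticulum (Hspa5, Hsp90b1, Dnajb9 and Dnajc3). The rule took 85 of the 45777 genes in the table and used no measured value. It is wider than the cytosol. Hspa9, Hspd1 and Hspe1 work in mitochondria, Hspa13, Dnajb11, Dnajc10 and Dnajb14 belong to the endoplasmic reticulum, and Hspb11 is a subunit of the intraflagellar transport complex. Tcp1, the first TRiC subunit, falls outside the symbol pattern and is given beside the others.

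RNA was sequenced from neutrophils of wild-type C57BL/6 mice, purified from bone marrow on a Percoll gradient and cultured for 24 h with 10 µM PGE2 or with DMSO vehicle. Each group held 3 libraries, numbered 1 to 3, which the series design calls biological replicates. Whether same-numbered libraries share an animal, a pool or a culture day is not labelled. The libraries held 42091346 to 56238941 counts, spread over 18242 to 19511 genes. All 13 neutrophil markers examined were detected in every library, with S100a9 at 36564 to 49148 CPM (the count scaled to the normalised size of its library) with PGE2 and 33801 to 39444 CPM with vehicle.

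HSP70 proteins bind exposed stretches of unfolded proteins and release them in a cycle driven by ATP. J-domain proteins bring clients and start ATP hydrolysis, and BAG and HSP110 proteins release the nucleotide and so the client. HSP90 takes over clients near their folded state, including kinases and steroid receptors, while TRiC folds actin and tubulin inside a closed chamber. Some of these genes are always on, and others are switched on by heat shock factor 1 (Hsf1), which binds repeated GAA units in alternating orientation, the heat shock element.

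Those elements were looked for in the RefSeq promoters (GRCm38.p6, the build of the deposited mm10 coordinates), over the 250 bases before each annotated start and on both strands. Sequences were matched for 69 of the 85 members, with 89 start sites. The first 2 below are shown because Hspa1a and Hspa1b differed widely between libraries in the results that follow. They are the 150 bases before the start, 5′ to 3′ on the gene's strand, with the heat shock element of 2 units (GAANNTTC) in capitals. The remaining lines show only the matched element, in capitals, with a few bases on either side, for Hsph1, which shared that spread, and for the members that rose with PGE2 and hold a match.

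Hspa1a, chr17:34972157-34972306, minus strand: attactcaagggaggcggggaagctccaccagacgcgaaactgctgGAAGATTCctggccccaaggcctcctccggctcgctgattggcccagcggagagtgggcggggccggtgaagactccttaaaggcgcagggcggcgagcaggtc
Hspa1b, chr17:34959239-34959388, minus strand: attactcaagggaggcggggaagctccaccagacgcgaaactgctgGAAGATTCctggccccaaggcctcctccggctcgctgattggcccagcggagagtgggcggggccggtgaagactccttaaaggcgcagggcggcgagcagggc
Hsph1, chr5:149636356-149636375, minus strand: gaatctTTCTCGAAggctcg
Hspe1, chr1:55088053-55088082, plus strand: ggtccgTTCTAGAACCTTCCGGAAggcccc
Dnajb6, chr5:29735846-29735870, plus strand: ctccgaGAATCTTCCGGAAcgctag
Dnajb4, chr3:152193846-152193865, minus strand: tcgctgTTCTAGAAagtaca
Dnaja1, chr4:40722338-40722357, plus strand: cctctaGAAAATTCtacgag

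Hspa1a and Hspa1b, neighbouring copies on chromosome 17, were identical at 149 of these 150 positions. An element of 3 units (GAANNTTCNNGAA) stood before 4 of the 89 member start sites (4.49%), against 0.466% of 32851 promoters. These 4 were 2 places in the genome: a stretch shared by Hspe1 and Hspd1, which start back to back, and 1 place that falls before both annotated starts of Dnajb6. The shorter element (GAANNTTC or TTCNNGAA, which the longer one contains) stood before 19 of 89 (21.3%), against 12.8% of all promoters. By member, it stood before 17 of the 69 with a matched promoter. Among these it stood before 4 of the 11 that rose with PGE2 and 0 of the 2 that fell. Counts by member take a match before any start of a gene, so the 12.8% of promoters is not their base. Most members held no match in this window, both in all and among those that differed with PGE2. Of the 6 members picked below for their high level in replicate 2 of both groups, 4 held it. Among these 4, Hspa1a and Hspa1b held the same letters in their near-identical stretches, so they are not separate cases. Dnaja4, described with the spread between libraries, held 2 matches that are not printed. The cAMP response element TGACGTCA stood before 1 of 89 (1.12%, Dnajc27), against 1.55% of all. These are matches of letters, not measured binding.

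Some members differed widely between libraries of the same treatment. In both groups the library numbered 2 held several times more RNA of the inducible HSP70 genes Hspa1a and Hspa1b than the libraries numbered 1 and 3. Hspa1a (chr17:34969359-34972156), an inducible HSP70, was at 40.7, 299 and 32.8 CPM in PGE2 replicates 1, 2 and 3, and at 31.7, 185 and 21.0 CPM in vehicle replicates 1, 2 and 3. Hspa1b (chr17:34956429-34959238), its twin, was at 56.6, 399 and 40.4 CPM with PGE2 and at 41.1, 230 and 27.7 CPM with vehicle. Reads from such close copies cannot be assigned with confidence, so their sum is given too: 97.3, 698 and 73.2 CPM with PGE2, and 72.8, 415 and 48.7 CPM with vehicle. Replicate 2 was 8.15 times the mean of replicates 1 and 3 for Hspa1a with PGE2 and 7.02 times with vehicle.

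Among the named members, Hsph1, Hsp90aa1 and Dnaja4 were also highest in replicate 2 of both groups, as were others with a smaller excess. Hsph1 (chr5:149616843-149636498), the HSP110 that exchanges nucleotide on HSP70, was at 24.7, 156 and 27.2 CPM with PGE2 and 23.8, 54.1 and 17.0 CPM with vehicle, a replicate 2 excess of 6.00-fold and 2.66-fold. Hsp90aa1 (chr12:110691036-110696395), the inducible cytosolic HSP90, was at 166, 583 and 138 CPM with PGE2 and 120, 204 and 104 CPM with vehicle, 3.84-fold and 1.82-fold in replicate 2. Dnaja4 (chr9:54698848-54716317), a class A J-domain protein, was at 5.75, 17.2 and 8.32 CPM with PGE2 and 3.64, 9.07 and 4.51 CPM with vehicle. Its excess in replicate 2 was 2.44-fold and 2.23-fold. For each of these 3 genes PGE2 replicate 2 was the highest of the 6 libraries and vehicle replicate 2 the next.

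**Figure D1:**
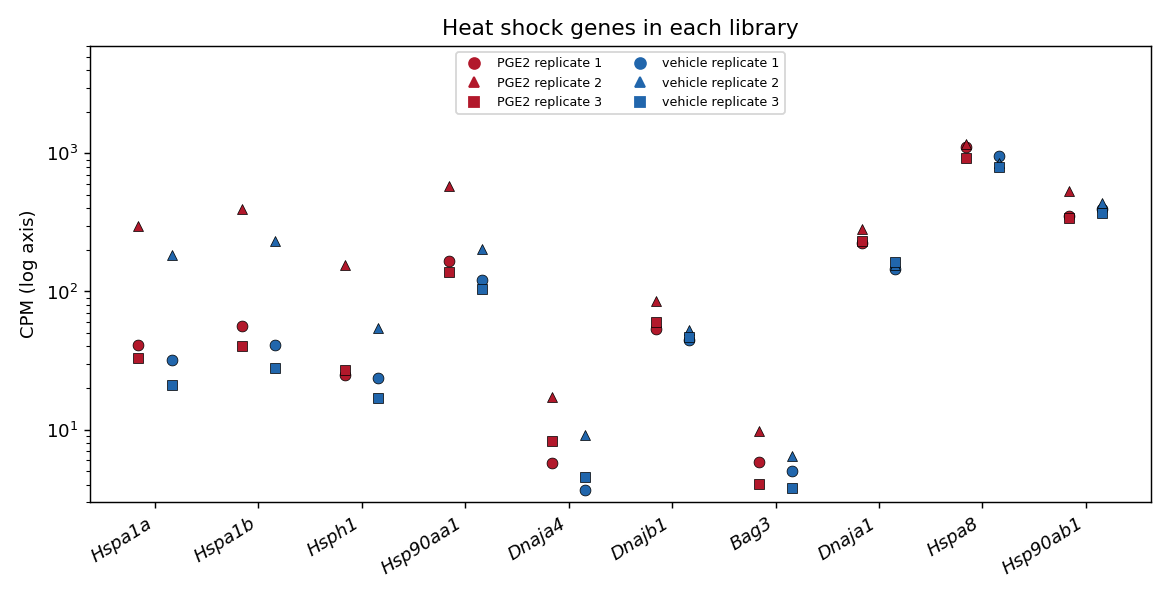
CPM on a log axis for members in each of the 6 libraries, PGE2 replicates 1 to 3 left of vehicle replicates 1 to 3. Hspa1a, Hspa1b and Hsph1 are highest in the library numbered 2 of either group, while Hspa8 stays between 796 and 1167 CPM.

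Other well-known members differed less between libraries. Hspa8, the constitutive cytosolic HSP70 and the most abundant member, was at 1114, 1167 and 931 CPM with PGE2 and 953, 858 and 796 CPM with vehicle. Hsp90ab1, the constitutive HSP90, was at 353, 538 and 338 CPM with PGE2 and 396, 437 and 368 CPM with vehicle. Dnajb1, the main class B partner of HSP70 in the heat response, was at 53.5, 85.8 and 59.8 CPM with PGE2 and 44.9, 52.7 and 46.6 CPM with vehicle, and Bag3, a BAG protein of selective autophagy, at 5.81, 9.74 and 4.04 CPM with PGE2 and 5.02, 6.43 and 3.77 CPM with vehicle. All 4 were highest in replicate 2 within the PGE2 group, by less than 2-fold over the mean of the other libraries. In the vehicle group Hsp90ab1, Dnajb1 and Bag3 were also highest in replicate 2, and Hspa8 in replicate 1. Dnajb2 and Dnajb4, given below, were highest in replicate 2 of both groups too, by less than 2-fold.

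Counted over the members, 6 of 72 tested (8.33%) were at least 2-fold the mean of the other libraries in replicate 2 of both groups, against 0.909% of all genes tested. They were Hspa1a, Hspa1b, Hspa1l, Hsph1, Dnaja4 and Cct6b. Hspa1l, a testis HSP70 next to Hspa1a with similar sequence, had only 17 to 134 counts, and Cct6b, a testis TRiC subunit, had 27 or fewer. For replicate 1 no member met that limit (0.715% of all genes), and for replicate 3 none did (0.709%). This contrast of 1 library with 2 others was chosen after its values were seen and has no test. Among 60 related genes tested, only Ppp1r15a, a stress-induced phosphatase subunit, met it in replicate 2.

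**Figure D2:**
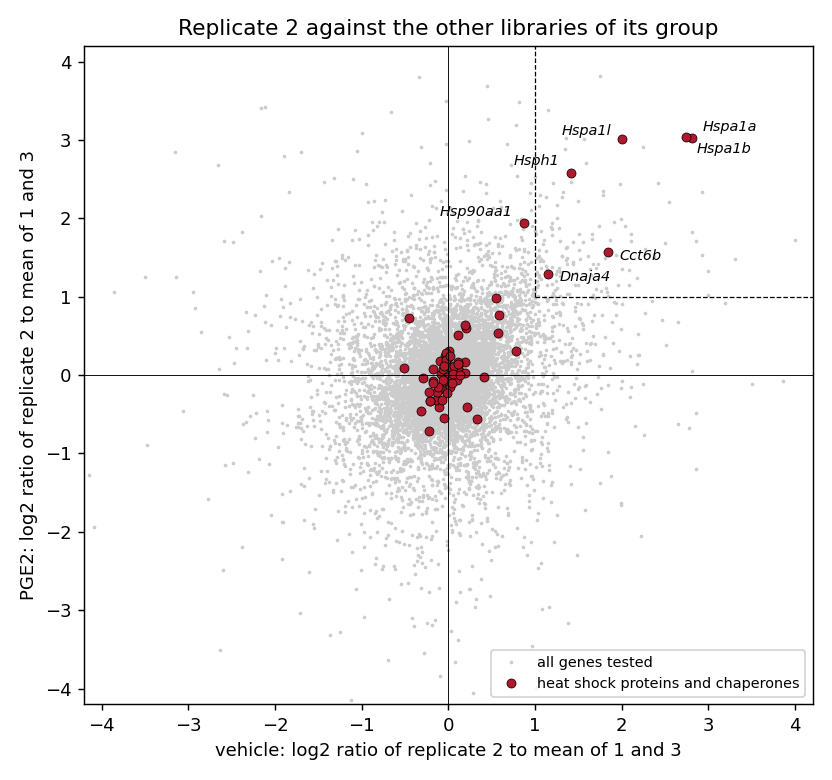
Level in replicate 2 over the mean of replicates 1 and 3, as log2, in the PGE2 group (vertical axis) and in the vehicle group (horizontal axis), for all genes tested (grey) and the members (red). Genes at 0 in a ratio are not drawn. The dashed corner marks at least 2-fold in both groups, where 6 members lie.

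Of 4 genes tested from the list of heat shock factors and their binding protein Hsbp1, edgeR called none for treatment, with or without the replicate number in the fit, and DESeq2 and limma called none. At an unadjusted p below 0.05, 2 were higher with PGE2. Of all genes tested, edgeR called 24.4% without the replicate number and 35.5% with it. Hsf1 was at 13.2, 17.8 and 20.9 CPM with PGE2 and 16.2, 19.9 and 18.8 CPM with vehicle, with replicate 2 inside the range of the others in the PGE2 group. Red cell markers moved with the same libraries. The 8 erythroid markers summed to 15445, 51017 and 23556 CPM with PGE2 and 4336, 19932 and 11793 CPM with vehicle, and were highest in replicate 2 of both groups. None of the 8 was at 0, and replicate 3, with more of these markers than replicate 1 in both groups, had less Hspa1a. The part of red cell RNA in the heat shock pattern was not tested.

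Turning to treatment, 13 of the 72 members tested rose with PGE2 and 3 fell at an adjusted p below 0.05, by edgeR's quasi-likelihood test with Benjamini-Hochberg adjustment over all 15947 genes. That is 22.2% of members, against 24.4% of all genes, so the members changed about as often as the rest. By direction, 18.1% rose, against 10.1% of all genes, and 4.17% fell, against 14.3%. The median log2 fold change (PGE2 over vehicle) was 0.19 over the members and 0.04 over all genes, with 51 members above 0 and 21 below. The groups did not overlap for 30 of 72 members (41.7%), against 42.3% of all genes. PGE2 was above in 21 of them (20.5% of all genes) and below in 9 (21.8% of all genes). The split differed between runs. With 1 library left out, 7.04 to 18.3% of members were higher, against 6.39 to 9.86% of all genes. Without vehicle replicate 3 the share of members (7.04%) was below that of all genes (7.53%), and in the other such fits above it. With DESeq2 size factors in edgeR, 12 of 72 members were higher (16.7%, against 9.85% of all genes) and 3 lower (4.17%, against 14.5%). On library totals 18 of 72 members were higher (25.0%, against 13.7% of all genes) and 1 was lower (1.39%, against 11.0%). On the authors' TPM (a level per gene length, with an equal total in every library), by limma, 3 of 65 were higher (4.62%, against 7.65%) and 5 were lower (7.69%, against 17.9%). The TPM run also changed the test and the filter, so the part of scaling alone cannot be told from it. The median log2 fold change of all genes was 0.13 on library totals and -0.06 on TPM. That of the members was 0.28 and 0.12. In these purified but mixed cells, fewer cells of a type and less RNA per cell cannot be told apart.

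Same-numbered libraries deviated together, with correlations of 0.258, 0.174 and 0.187, so a second fit, with replicate number as a block, is given too. It raised the counts to 28 higher and 6 lower (47.2% of members, against 35.5% of all genes). By direction these were 38.9% of members higher, against 16.6% of all genes, and 8.33% lower, against 18.9%. The 16 members called without the block were all called with it. The 18 members it added included Hspa1a, Hspa1b, Hsph1, Hsp90aa1 and Dnaja4.

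Within each replicate number Hspa1a, Hspa1b, Dnaja4, Hsp90aa1 and Hsph1 were higher with PGE2. The ratio of PGE2 to vehicle in replicates 1, 2 and 3 was 1.28, 1.62 and 1.56 for Hspa1a, 1.38, 1.73 and 1.46 for Hspa1b, and 1.58, 1.90 and 1.85 for Dnaja4. Hsp90aa1 gave 1.38, 2.86 and 1.34, and Hsph1 gave 1.04, 2.87 and 1.60, so replicate 2 carried most of the difference in those 2 genes. With the block, the log2 fold change of Hspa1a was 0.57 ± 0.08 (SE, n = 3 each; edgeR adjusted p = 0.00142). Without the block it was 0.65 ± 1.01 (edgeR adjusted p = 0.693), -1.10 without PGE2 replicate 2 and 0.48 without both libraries numbered 2. Hspa1b was at 0.60 ± 0.08 with the block (edgeR adjusted p = 0.00100) and 0.73 ± 1.01 without it (edgeR adjusted p = 0.653), at -1.04 without PGE2 replicate 2 and at 0.50 without both libraries numbered 2. Both genes passed in the fit with the block alone.

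Dnaja4 was at 0.83 ± 0.12 with the block (edgeR adjusted p = 0.00152) and 0.86 ± 0.46 without (edgeR adjusted p = 0.215). Hsp90aa1 was at 0.80 ± 0.20 with the block (edgeR adjusted p = 0.0156) and 1.05 ± 0.53 without (edgeR adjusted p = 0.195), and at 0.09 without PGE2 replicate 2. Hsph1 was at 0.77 ± 0.23 with the block (edgeR adjusted p = 0.0347) and 1.13 ± 0.74 without (edgeR adjusted p = 0.314), at -0.28 without PGE2 replicate 2 and at 0.35 without both libraries numbered 2. Hspa8 had an edgeR adjusted p of 0.0233 with the block and 0.0929 without, at a log2 fold change of 0.30 in either fit. Hsp90ab1, at 0.03 ± 0.18, passed in neither fit, and its sign changed without PGE2 replicate 2 (-0.21), without vehicle replicate 3 (-0.02) and on TPM (-0.11).

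**Figure D3:**
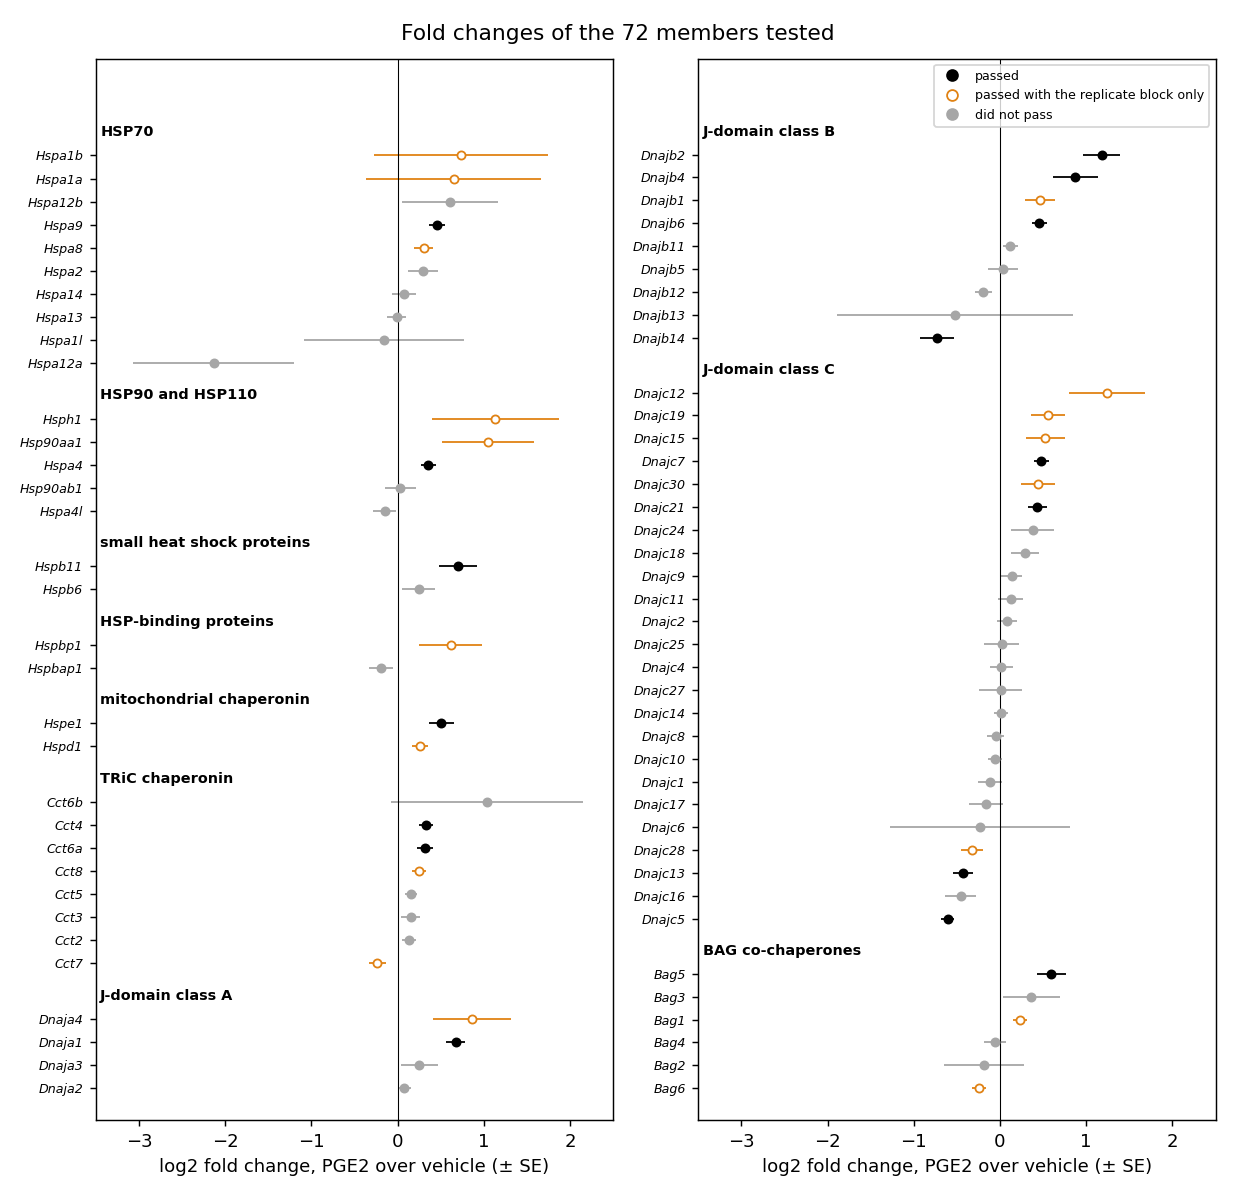
Log2 fold change (PGE2 over vehicle) with its standard error for the tested members, grouped by family, in the fit without the replicate number. Black points mark the 16 members that passed, open orange points those that passed with the replicate block alone and grey points the rest. The long bars belong to Hspa1a, Hspa1b, Hsph1 and a few genes with low counts.

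Among the HSP70, HSP90, HSP110 and mitochondrial chaperonin genes, 3 of 17 tested rose without the block and none fell. Of all genes tested, 10.1% rose and 14.3% fell. In this group 0 were lower at an unadjusted p below 0.05, and 0 with DESeq2 or limma. Hspa4, an HSP110 that exchanges nucleotide on HSP70, was at 131, 140 and 122 CPM with PGE2 and 104, 108 and 95.6 CPM with vehicle. All 3 PGE2 libraries were above all 3 vehicle libraries, and the log2 fold change was 0.36 ± 0.09 (SE, n = 3 each; edgeR adjusted p = 0.0205). Hspa9, the mitochondrial HSP70 (mortalin), was at 46.0, 43.4 and 40.4 CPM with PGE2 and 29.7, 32.3 and 32.3 CPM with vehicle, a log2 fold change of 0.46 ± 0.09 (edgeR adjusted p = 0.00809). Hspe1, the lid of the mitochondrial chaperonin, was at 15.5, 21.2 and 20.4 CPM with PGE2 and 14.2, 13.5 and 12.4 CPM with vehicle (0.51 ± 0.14, edgeR adjusted p = 0.0348). Its partner Hspd1, the barrel, was at 0.26 ± 0.10 (edgeR adjusted p = 0.0895, and 0.0320 with the block), and the 2 genes overlap at their starts. For Hspa9 and Hspe1 all PGE2 libraries were above all vehicle libraries. Among their mitochondrial partners, 2 of 7 rose, against the same 10.1% of all genes. They were the nucleotide exchange factor Grpel1 (0.43 ± 0.13, edgeR adjusted p = 0.0377, and up to 0.101 in fits that left out any library but PGE2 replicate 1) and the protease Lonp1 (0.35 ± 0.10, edgeR adjusted p = 0.0343, and up to 0.115 in fits that left out replicate 2 or 3 of either group). Hspa4 lost its call without PGE2 replicate 2 or vehicle replicate 3 (edgeR adjusted p up to 0.0745), and Hspe1 in each such fit but that without PGE2 replicate 1 (up to 0.107).

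Of 37 J-domain proteins tested, 6 rose and 3 fell without the block. That is 24.3% called, close to the 24.4% of all genes. Dnajb2 (chr1:75236395-75245692), whose protein carries ubiquitin-binding motifs and directs HSP70 clients to the proteasome, had the highest fold change among members that passed. It was at 28.4, 45.4 and 34.2 CPM with PGE2 and 14.3, 20.4 and 13.1 CPM with vehicle, a log2 fold change of 1.18 ± 0.22 (SE, n = 3 each; edgeR adjusted p = 0.00589). Its lowest PGE2 library was above its highest vehicle library, and its call held in every alternative run. Dnaja1 (chr4:40722468-40734965), a cytosolic class A partner of HSP70, was at 225, 282 and 231 CPM with PGE2 and 146, 155 and 163 CPM with vehicle (0.67 ± 0.11, edgeR adjusted p = 0.00314). Its call also held in every alternative.

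Dnajb6 (chr5:29735898-29786478), which keeps aggregation-prone proteins soluble, was at 141, 165 and 149 CPM with PGE2 and 118, 106 and 108 CPM with vehicle (0.46 ± 0.09, edgeR adjusted p = 0.00813). Dnajc7 (chr11:100582818-100620292), which binds both HSP70 and HSP90 through TPR repeats, was at 233, 212 and 237 CPM with PGE2 and 163, 154 and 173 CPM with vehicle (0.48 ± 0.08, edgeR adjusted p = 0.00489). Dnajb4, a class B relative of Dnajb1, was at 16.7, 31.5 and 20.4 CPM with PGE2 and 11.0, 16.1 and 10.4 CPM with vehicle (0.87 ± 0.26, edgeR adjusted p = 0.0416). Its lowest PGE2 library, at 16.7 CPM, was just above its highest vehicle library, at 16.1 CPM. Its fold change was 0.58 without PGE2 replicate 2 and its call was lost without PGE2 replicate 2 or 3 or vehicle replicate 1 or 3 (edgeR adjusted p up to 0.120). Dnajc21, which takes part in ribosome maturation, was at 15.8, 15.4 and 16.8 CPM with PGE2 and 12.7, 11.6 and 11.3 CPM with vehicle (0.43 ± 0.11, edgeR adjusted p = 0.0235, and up to 0.0854 without PGE2 replicate 3 or vehicle replicate 2 or 3). Dnajb1, the best known member of its class, was at 0.47 ± 0.17 (edgeR adjusted p = 0.0859, and 0.00903 with the block).

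The members that fell were Dnajc5, Dnajb14 and Dnajc13. Dnajc5 (chr2:181518858-181552886), the cysteine string protein of secretory vesicles, had the smallest adjusted p of all members. It was at 161, 150 and 153 CPM with PGE2 and 245, 228 and 233 CPM with vehicle, a log2 fold change of -0.61 ± 0.08 (SE, n = 3 each; edgeR adjusted p = 0.00118), and its call held in every alternative. The groups were far apart relative to the spread within either. Dnajb14 (chr3:137867675-137916563), in the membrane of the endoplasmic reticulum, was at 41.5, 30.8 and 26.9 CPM with PGE2 and 65.7, 55.3 and 43.3 CPM with vehicle (-0.73 ± 0.20, edgeR adjusted p = 0.0291). Dnajc13, which acts on endosomes, was at 64.8, 52.7 and 54.0 CPM with PGE2 and 86.7, 73.3 and 70.6 CPM with vehicle (-0.43 ± 0.12, edgeR adjusted p = 0.0320). In both genes the groups came close, and both calls were lost without PGE2 replicate 2 or 3 or vehicle replicate 1 or 2 (edgeR adjusted p up to 0.0959 for Dnajb14 and 0.106 for Dnajc13) and on library totals (0.0521 and 0.108).

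**Figure D4:**
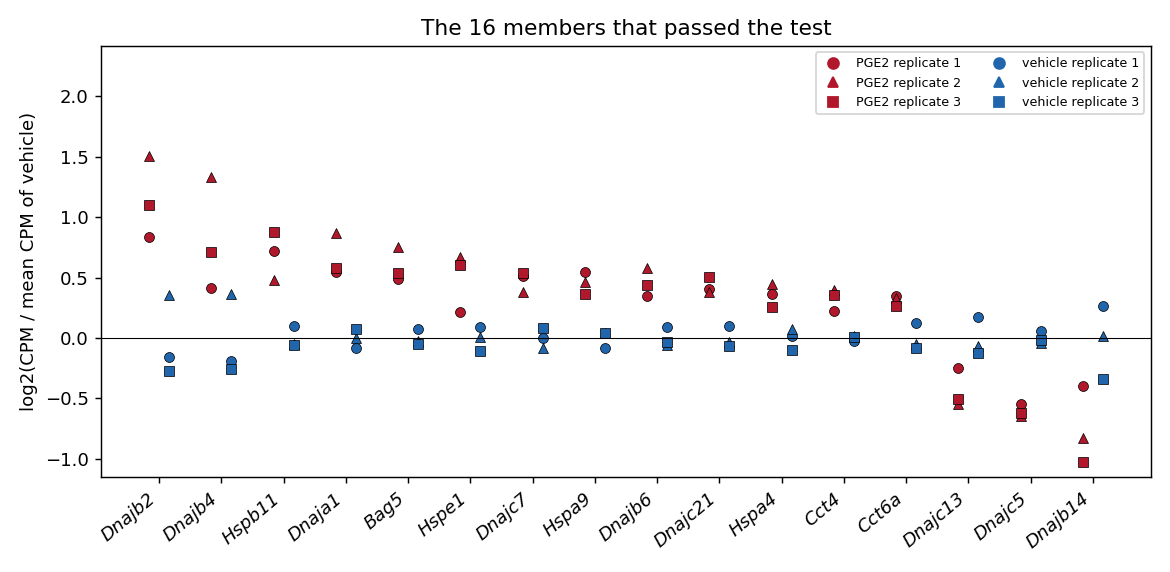
Level in each library as log2 of its CPM over the mean CPM of vehicle, for the 16 members that passed, PGE2 points left of vehicle points. For every gene the 3 PGE2 points lie wholly above or wholly below the 3 vehicle points, with Dnajc5, Dnajb14 and Dnajc13 below.

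In the TRiC chaperonin, 2 of 8 tested subunits rose and none fell, where 10.1% of all genes rose and 14.3% fell. At an unadjusted p below 0.05, 1 subunit was lower, with DESeq2 0 and with limma on TPM 1. Cct4 was at 109, 123 and 120 CPM with PGE2 and 92.1, 94.6 and 94.3 CPM with vehicle (0.33 ± 0.08, edgeR adjusted p = 0.0199). Cct6a was at 42.5, 41.9 and 40.2 CPM with PGE2 and 36.4, 32.2 and 31.6 CPM with vehicle (0.31 ± 0.09, edgeR adjusted p = 0.0386). Tcp1 was at 0.27 ± 0.09 (edgeR adjusted p = 0.0692, and 0.0174 with the block), and Cct5, a further subunit, at 0.15 ± 0.07 (edgeR adjusted p = 0.161). Cct7 lay the other way. It was at 65.5, 76.3 and 77.4 CPM with PGE2 and 79.5, 90.7 and 87.9 CPM with vehicle, and passed with the block and on filtered TPM (-0.24, edgeR adjusted p = 0.0257 with the block). Its gene overlaps Pradc1 and Cct6a overlaps Psph, so reads could be shared. Cct4 lost its call without replicate 2 of either group or vehicle replicate 3 (edgeR adjusted p up to 0.0700), and Cct6a without any library but vehicle replicate 1 (up to 0.135).

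Prefoldin, the complex that hands unfolded actin and tubulin to TRiC, is built from subunits that the symbol rule does not take. Of 10 prefoldin and TRiC partner genes, 6 rose and none fell (0 lower at an unadjusted p below 0.05 and with DESeq2 or limma), at a median log2 fold change of 0.42, and 8 rose with the block. Over all genes 10.1% rose and 14.3% fell, and 16.6% rose with the block. This list was chosen with earlier results of these data known, so the comparison is not independent. Pfdn5 was at 249, 242 and 222 CPM with PGE2 and 157, 172 and 170 CPM with vehicle (0.51 ± 0.08, edgeR adjusted p = 0.00341). Pfdn4 was at 7.61, 7.82 and 6.90 CPM with PGE2 and 3.75, 3.99 and 4.52 CPM with vehicle (0.86 ± 0.15, edgeR adjusted p = 0.00488). For both genes all PGE2 libraries were above all vehicle libraries, and both calls held without any 1 library. The others that rose were the prefoldin subunits Pfdn2 and Vbp1 and the phosducin-like TRiC cofactors Pdcl3 and Txndc9.

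**Figure D5:**
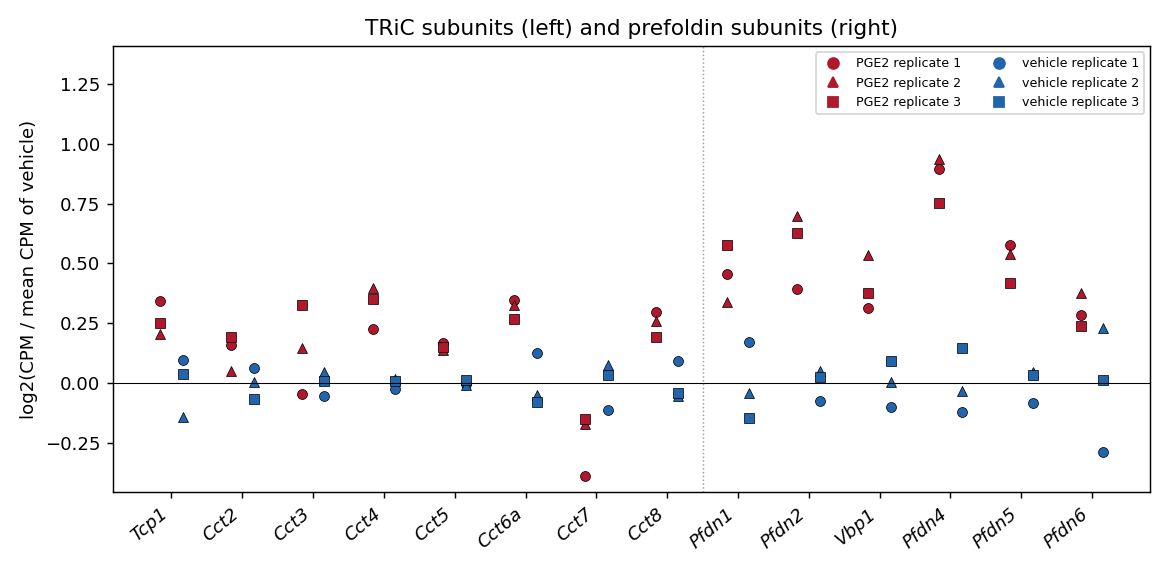
Level in each library as log2 of its CPM over the mean CPM of vehicle, for TRiC subunits (left) and prefoldin subunits (right), PGE2 left of vehicle. The prefoldin genes that passed are higher in all 3 PGE2 libraries, while Cct7 is lower in all 3.

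BAG proteins release clients from HSP70. Of 6 tested, Bag5 alone passed without the block, at 4.73, 5.68 and 4.91 CPM with PGE2 and 3.56, 3.31 and 3.25 CPM with vehicle (0.60 ± 0.17, edgeR adjusted p = 0.0323). It lost that call without any library but PGE2 replicate 1 (edgeR adjusted p up to 0.102). Of all genes, 24.4% passed without the block. Bag1 was at 70.8, 73.1 and 73.5 CPM with PGE2 and 60.9, 65.3 and 59.1 CPM with vehicle, with no overlap (edgeR adjusted p = 0.0677, and 0.0330 with the block). Bag6, which escorts membrane proteins and faulty chains, was at 138, 155 and 154 CPM with PGE2 and 170, 179 and 178 CPM with vehicle. It also had no overlap, in the other direction (edgeR adjusted p = 0.0668, and 0.0250 with the block). Bag6 was called lower too with the Wald test of DESeq2 and in each TPM run (limma adjusted p = 0.0397 on log2(TPM + 1)). Bag1 was called higher too with that Wald test, on library totals and with the filter of 50 counts. The HSP-binding proteins Hspbp1, an HSP70 exchange factor, and Hspbap1 did not pass (edgeR adjusted p = 0.265 and 0.367), and Hspbp1 passed with the block (0.0267).

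Small heat shock proteins hold unfolded proteins without ATP. Only 2 of 8 had enough counts for the test. Hspb11 was at 2.89, 2.45 and 3.21 CPM with PGE2 and 1.88, 1.69 and 1.68 CPM with vehicle (0.70 ± 0.22, edgeR adjusted p = 0.0490), and lost its call in each of the 6 fits that left out 1 library (edgeR adjusted p up to 0.135). Hspb6 was at 0.24 ± 0.19 (edgeR adjusted p = 0.408). Hspb1, the best known heat-inducible member of the family, had 23, 0 and 0 counts with PGE2 and 0, 3 and 0 counts with vehicle, so it was near 0 also in the libraries numbered 2. In all, 13 members were not tested, and 6 of them had no count in any library (Dnajb8, Dnajc22, Dnajc5b, Dnajc5g, Hspb2 and Hspb3).

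Levels compare across genes on the TPM scale. The members together took 3305, 3621 and 3130 TPM with PGE2 and 3255, 3097 and 2774 TPM with vehicle. Hspa8 alone was at 902, 809 and 759 TPM with PGE2 and 852, 676 and 651 TPM with vehicle. Over the 6 libraries Hsp90ab1 averaged 270 TPM, Dnajc8, a splicing-associated J-domain protein, 158 TPM, Dnajc7 143 TPM, Hsp90aa1 123 TPM and Dnajb6 104 TPM. The median of the 72 tested members was 17.0 TPM. These means are over both groups, and that of Hsp90aa1 includes its high libraries numbered 2.

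Outside the members, the HSP90 co-chaperones went both ways, with 4 of 17 higher and 4 lower. Of all genes, 10.1% were higher and 14.3% lower. Fkbp5, an immunophilin of steroid receptor complexes, was at 54.5, 51.3 and 50.2 CPM with PGE2 and 81.6, 87.1 and 99.2 CPM with vehicle (-0.78 ± 0.10, edgeR adjusted p = 0.00112). Unc45a, a myosin chaperone that binds HSP90, was at 46.2, 57.2 and 56.8 CPM with PGE2 and 34.7, 36.7 and 36.1 CPM with vehicle (0.58 ± 0.10, edgeR adjusted p = 0.00558). In both genes the groups were well apart. Of the 11 chaperones of the endoplasmic reticulum, 4 rose and none fell (0 lower at an unadjusted p below 0.05 and with DESeq2 or limma), led by Dnajb9 (0.77 ± 0.10, edgeR adjusted p = 0.00132) and Hspa5 (0.54 ± 0.09, edgeR adjusted p = 0.00423).

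Among 5 HSP70 partners, Ppp1r15a passed (1.85 ± 0.46, edgeR adjusted p = 0.0205), at 367, 714 and 208 CPM with PGE2 and 94.1, 180 and 83.6 CPM with vehicle. It is no chaperone partner by its main role but a phosphatase subunit of the stress response, and its call was lost without PGE2 replicate 2, vehicle replicate 1 or vehicle replicate 3 (edgeR adjusted p = 0.0508, 0.0709 and 0.0652). Of 6 other heat-inducible genes tested, 1 rose: Zfand2a, a zinc-finger protein linked to the proteasome, at 20.1, 30.7 and 26.8 CPM with PGE2 and 6.55, 8.30 and 7.64 CPM with vehicle (1.79 ± 0.18, edgeR adjusted p = 5.3e-04). All its PGE2 libraries were above all its vehicle libraries, and replicate 2 was less than 2-fold the others. Over all 63 related genes, 60 were tested, 18 rose (30.0%, against 10.1% of all genes) and 4 fell (6.67%, against 14.3%). With the block 27 rose (45.0%, against 16.6% of all genes) and 5 fell (8.33%, against 18.9%). The related lists were chosen with earlier results of these data known, so these shares are not an independent comparison. Hsf2, a second heat shock factor, was at 0.53 ± 0.20 (edgeR adjusted p = 0.0946).

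Markers of other cells also differed by treatment. Over all genes 10.1% rose and 14.3% fell without the block, and 16.6% and 18.9% with it. Of 8 erythroid markers 1 rose without the block and all 8 rose with it. Of 8 B lineage markers 4 rose without the block and 7 with it. The B lineage markers summed to 743, 620 and 905 CPM with PGE2 and 485, 409 and 558 CPM with vehicle. Of 9 monocyte and macrophage markers 2 fell (514 to 696 CPM summed with PGE2, 677 to 827 CPM with vehicle). With the block 2 of the 9 fell and 1 rose. Of 8 eosinophil and basophil markers 3 fell in either fit (82.8 to 141 CPM with PGE2, 163 to 256 CPM with vehicle). None of 7 T and NK markers passed in edgeR without the block, at an unadjusted p below 0.05 or with DESeq2 or limma. With the block 3 of the 7 rose: Cd3g, Trac and Gzma (edgeR adjusted p = 0.0179, 0.0195 and 0.00651). The 7 summed to 40.4 to 109 CPM with PGE2 and 35.6 to 83.1 CPM with vehicle, and Ncr1 was at 0 in replicate 1 of both groups. Of 13 neutrophil markers 9 fell without the block and 10 with it. The sum of all 13 was 73081 to 89220 CPM with PGE2 and 78266 to 85531 CPM with vehicle, but S100a8, S100a9 and Retnlg, none of which passed, made up 83.6 to 88.3% of it with PGE2 and 71.9 to 78.3% with vehicle. The other 10 summed to 9248 to 13410 CPM with PGE2 and 18288 to 22016 CPM with vehicle, without overlap. The part of these cells in the members' differences was not tested.

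The 3 members called in every alternative were Dnajb2, Dnaja1 and Dnajc5. Leaving out 1 library kept all 3 and also Dnajb6, Dnajc7 and Hspa9, 6 of the 16. The other 10 lost the call in at least 2 such fits, as given with each. On log2(TPM + 1) with limma, 6 of the 16 passed (Dnaja1, Dnajb2, Dnajb6, Dnajb14, Dnajc5 and Dnajc13). Without both libraries numbered 2, 4 members were called, where 8.45% of all genes were. Dnaja1, Dnajb2 and Dnajb4 were higher, against 3.02% of all genes, and Dnajc5 was lower, against 5.44%. Of the 16 members, 10 overlap another annotated gene, among them Dnajb4 with Fubp1, Bag5 with Apopt1 and Dnajc7 with Cnp and Nkiras2. No source says if strand was used in counting, so reads in a shared stretch could be counted for either gene. Overlap was taken over whole gene spans, introns included, so it need not fall in exons.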

How the data were processed

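Per the labels' protocols, RNA was taken from the cultured cells and made into polyA libraries with a TruSeq mRNA kit, named both as standard and as stranded. Per the submitters' processing notes, the genome build was mm10 and the tools were STAR, Bowtie2, RSEM, StringTie 2.1.3b and DESeq2, with no word on which tool made which values. The deposited series table holds the authors' estimated counts, all whole numbers. It is named as normalized, yet the library totals differ, so the values were treated as raw. The authors' TPM values stand beside them and in per-library tables. The table also held 18 columns of 6 other libraries, not used here. Coordinates were the same as RefSeq GRCm38.p6 for 96.3% of matched genes.

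A gene was tested if 3 or more libraries had 10 or more counts, which 15947 did, with edgeR 4.0.16 (quasi-likelihood test, TMM, two-sided, R 4.3.3), Benjamini-Hochberg adjustment and a threshold of 0.05. The biological coefficient of variation was 22.4%, and 14.4% with the replicate number as a block. The pairing was checked by correlating deviations from group means: same-numbered libraries gave 0.258, 0.174 and 0.187, and differently numbered ones -0.166 to 0.002. Replicates of a group correlated at 0.961 to 0.981. Each test was first tried on simulated counts. CPM used TMM sizes. Members and gene lists were chosen with earlier results of these data known. Named genes were the members that passed without overlap, 14 well-known members, the 2 most abundant by TPM of each family, Hsf1, Hsf2, Tcp1 and the 2 related genes with the smallest adjusted p in each list. Others, such as Dnaja4, Hspa1l and Cct7, were named after their values were seen.

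Alternatives were the replicate block, 1 library left out at a time, scaling by DESeq2 1.42.0 size factors or by library totals, the Wald test of DESeq2, a filter of 50 counts or none, and limma 3.58.1 on the authors' TPM as log2(TPM + 1), log2(TPM + 0.1) (TPM of at least 1 in 3 libraries) and unfiltered. Leaving out both libraries numbered 2 was chosen after seeing the data.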

Additional observations from a re-analysis of the deposited data

How the results depend on the processing

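With the replicate block the members numbered 28 higher and 6 lower, against 13 and 3 without, and no call of a named gene was lost with it. Leaving out 1 library gave 5 to 13 higher and 1 to 3 lower, and for related genes 11 to 19 higher and 2 to 4 lower. Without PGE2 replicate 1, 2 or 3, 18.3, 8.45 and 11.3% of members were higher, against 9.86, 6.8 and 7.97% of all genes. Without vehicle replicate 1, 2 or 3, 15.3, 10.0 and 7.04% were higher, against 7.52, 6.39 and 7.53%. In these fits 1.39 to 4.23% of members were lower, against 10.3 to 14.5% of all genes. Library totals gave 1 lower member and 2 lower related genes. On log2(TPM + 1), 3 members were higher and 5 lower with 10 related genes higher, and on log2(TPM + 0.1) 3 and 5 with 9 related higher. On unfiltered TPM 2 members were higher (2.53%, against 2.9% of all genes) and 2 lower (2.53%, against 6.8%). In that run 9 related genes were higher and 2 lower. Without both libraries numbered 2, 3 members were higher and 1 lower, and 3 related genes higher and 1 lower. The causes were not tested, and the runs that left out libraries also had fewer of them.

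Signs changed for genes that had no call without the block. With 1 library left out, the log2 fold change ran over -1.10 to 2.24 for Hspa1a, -1.04 to 2.27 for Hspa1b, -0.28 to 1.77 for Hsph1, -0.21 to 0.16 for Hsp90ab1, -0.039 to 0.62 for Bag3, -0.13 to 0.011 for Dnajc8 and -0.23 to 0.092 for Hsf1. The negative ends of the first 5 came without PGE2 replicate 2. Hsp90ab1 was at -0.11 on each TPM setting and -0.14 without both libraries numbered 2, and Dnaja2 at -0.032 on each TPM setting. Dnajc8 was at 0.042 on library totals and 0.0021 without both libraries numbered 2, and Hsf1 at 0.017 on library totals. The low counts of Hspa1l, Cct6b and the small heat shock proteins limit what can be read from them.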
